A study of Mus musculus with 9 samples.

Results

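The glucocorticoid receptor gene and genes known as its targets, 10 members of the 54532 genes in the deposited tables, were followed through adipogenic stimulation of 3T3-L1 cells with and without lysine. They are the receptor gene Nr3c1 and the targets Fkbp5, Tsc22d3, Per1, Klf9, Zbtb16, Dusp1, Sgk1, Mt1 and Mt2, and each was matched by its symbol. 3T3-L1 is a mouse fibroblast line of preadipocytes that becomes fat-laden under a hormonal cocktail. Poly A RNA was sequenced in 3 groups of 3 libraries. The Undifferentiated group was kept confluent for 3 days in high glucose DMEM with calf serum and received no cocktail, and its day of harvest relative to the other groups was not given in the sources used here. The Differentiated group received, after the same 3 days at confluence, a medium with dexamethasone at 1 μM, the phosphodiesterase inhibitor IBMX at 0.5 mM, rosiglitazone at 1 μM and insulin at 10 μg/mL. The Lysfree group received that medium, with the same 4 agents at the same doses, with no lysine added. Per the study, the cocktail medium was built on another DMEM with fetal serum, and the lysine-free medium still held a trace of lysine. The study collected cells for RNA after the differentiation period, and it gives 3 days of culture for its measurements of that medium. No earlier time was sequenced, so early or transient responses to the cocktail were not seen. No group received dexamethasone alone, so dexamethasone cannot be told apart from IBMX, rosiglitazone, insulin, the serum or the time in culture in any comparison with Undifferentiated, whereas Lysfree vs Differentiated compared cells that received all 4 agents. The comparisons shared libraries, so their values are given side by side.

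Dexamethasone is a synthetic glucocorticoid. It binds the receptor encoded by Nr3c1, which is held ready in the cytoplasm by Hsp90 and its partner proteins, and the bound receptor moves to the nucleus and binds glucocorticoid response elements, inverted repeats of a short half-site, near genes that it raises or lowers. In preadipocytes glucocorticoid is a classical trigger of adipogenesis, given together with IBMX, which blocks the breakdown of cAMP.

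Upstream sequence is shown for 3 of the members, because Sgk1, Mt1 and Dusp1 hold the longest matches to the response elements of the 2 signals and went 3 different ways in the data. The windows come from RefSeq promoters on GRCm38.p6, which held 8 of the 10 members (not Nr3c1 and Zbtb16), and they are given 5′ to 3′ on the strand of the gene, left of the start site and trimmed of bases that GENCODE vM21 places in an exon. Capitals mark the full glucocorticoid element in Sgk1 (chr10:21993640-21993889, plus strand), the core of that element and then a metal response element in Mt1 (chr8:94178839-94179081, plus strand), and a cAMP half-site and then the full cAMP element in Dusp1 (chr17:26508520-26508722, minus strand).
Sgk1: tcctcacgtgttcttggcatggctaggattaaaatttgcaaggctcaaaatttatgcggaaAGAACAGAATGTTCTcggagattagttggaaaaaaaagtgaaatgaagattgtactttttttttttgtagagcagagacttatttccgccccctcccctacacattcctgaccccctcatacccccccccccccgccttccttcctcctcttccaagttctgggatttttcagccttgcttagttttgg
Mt1: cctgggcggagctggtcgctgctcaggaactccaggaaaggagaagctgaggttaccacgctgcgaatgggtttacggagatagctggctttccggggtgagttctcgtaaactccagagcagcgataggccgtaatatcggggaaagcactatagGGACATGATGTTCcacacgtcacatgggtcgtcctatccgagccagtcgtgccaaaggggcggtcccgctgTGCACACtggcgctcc
Dusp1: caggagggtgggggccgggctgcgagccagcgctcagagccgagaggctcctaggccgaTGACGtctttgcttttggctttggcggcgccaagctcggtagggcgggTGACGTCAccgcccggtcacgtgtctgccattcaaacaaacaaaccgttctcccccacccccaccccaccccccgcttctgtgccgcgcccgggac

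The motifs were searched on both strands in the 250 bases before each of 32851 RefSeq start sites, 16 of which belong to the 8 members. The full glucocorticoid element (AGAACA, any 3 bases, then TGTTCT) was in 3 windows (0.00913%), of which 1 is the Sgk1 window shown, at bases -189 to -175 from the start. The shorter core (GNACA, any 3 bases, then TGTNC) was in 0.387% of all windows and in windows of Mt1 (bases -94 to -82) and Sgk1, where it lies inside the full element. The half-site AGAACA was in 16.1% of all windows and in windows of Sgk1 and Tsc22d3. The full cAMP element TGACGTCA was in 1.55% of all windows and, among the members, in Dusp1 alone (bases -143 to -136), and its half-site TGACG, which the full element also contains, was in 17.8% of all windows and in windows of 6 members, Dusp1, Klf9, Mt1, Per1, Sgk1 and Tsc22d3. The metal response element, TGCGCNC or TGCACNC, was in 21.4% of all windows and in windows of Mt1, Mt2 and Per1. The E-box CACGTG was in 6.02% of all windows and in windows of Dusp1, Fkbp5, Per1 and Sgk1. Some members have several start sites, so a count of genes is not alike to a share of windows. Of the 16 member windows, 4 held AGAACA, 7 held TGACG, 3 held the metal response element and 4 held the E-box. A match is only a run of letters in these windows and no binding was measured.

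Total counts were 15880144 to 21806693 per library, so that 3 counts were worth 0.138 to 0.189 CPM (counts scaled by library size). Lysfree 1 stood apart: within groups, the chi-square per degree of freedom between libraries was 43.3 and 44.4 for the pairs with Lysfree 1 and 2.76 to 12.3 for all other pairs. Member results that rest on Lysfree 1 are given with and without it, while single genes of the lists are given with all libraries only. The summed level of 8 adipocyte markers was 217 to 331 FPKM (fragments scaled by gene length and library total) in Undifferentiated, 6097 to 6401 in Differentiated and 73.7 to 80.4 in Lysfree, and 7 of the 8 rose as DEGs in Differentiated vs Undifferentiated and 8 of 8 fell in Lysfree vs Differentiated. The summed level of 7 fibroblast markers was 3597 to 3870, 785 to 795 and 1000 to 1058 FPKM, with 7 of 7 lower in Differentiated vs Undifferentiated. The sums of macrophage, endothelial and muscle markers did not exceed 5.01, 0.272 and 4.27 FPKM in any library. In bulk RNA, fewer cells of a type and less RNA per cell cannot be told apart, and the part of these shifts in the member genes was not tested. The labels do not say whether replicates were separate cultures, so p values measure the spread between these libraries, which may be technical.

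With lysine, the cocktail medium raised most of the members. A differentially expressed gene (DEG) had an edgeR adjusted p under 0.05 and a change of at least 2-fold. In Differentiated vs Undifferentiated, 5 of the 10 members were higher DEGs (Dusp1, Mt2, Zbtb16, Per1 and Klf9) and 1 was a lower DEG (Sgk1), where 10.4% of all 24402 genes tested were higher and 11.4% lower. By the adjusted p alone 7 members were higher and 2 lower, beside 23% and 23.2% of all genes (9 of 10 in either direction, beside 46.1%), and the median log2 fold change was 1.04 over the members and 0.02 over all genes. In Lysfree vs Undifferentiated, 2 members were higher DEGs (Dusp1 and Mt1) and 0 were lower, beside 5.52% and 8.76% of 23994 genes. By the adjusted p alone 6 were higher and 2 lower, beside 18% and 17.1%, with a median of 0.73 over the members and -0.02 over all genes (8 of 10 in either direction, beside 35.1%). The FPKM of 7 members lay above and of 2 below without overlap in Differentiated vs Undifferentiated, beside 26.2% and 24.7% of all genes, and of 6 above and 3 below in Lysfree vs Undifferentiated, beside 20.2% and 23.2%.

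Removing lysine from the same cocktail moved the members in both directions. In Lysfree vs Differentiated, 0 members were higher DEGs and 2 were lower (Dusp1 and Zbtb16), beside 8.14% higher and 10.5% lower among 24130 genes. By the adjusted p alone 4 members were higher (Tsc22d3, Sgk1, Mt1 and Nr3c1) and 5 lower (Dusp1, Zbtb16, Per1, Klf9 and Fkbp5), beside 19.7% and 18.8% (9 of 10 in either direction, beside 38.5%), and the median was -0.31 over the members and -0.06 over all genes. The groups did not overlap for 2 members that were higher and 6 that were lower, beside 21.3% and 25.3%. The count of DEGs without Lysfree 1 was 2 in Lysfree vs Undifferentiated and 3 in Lysfree vs Differentiated, where Mt2 was the added gene. The smallest p that an exact permutation test allows for 3 libraries against 3 is 0.1, so each p given is from the edgeR model.

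**Figure D1:**
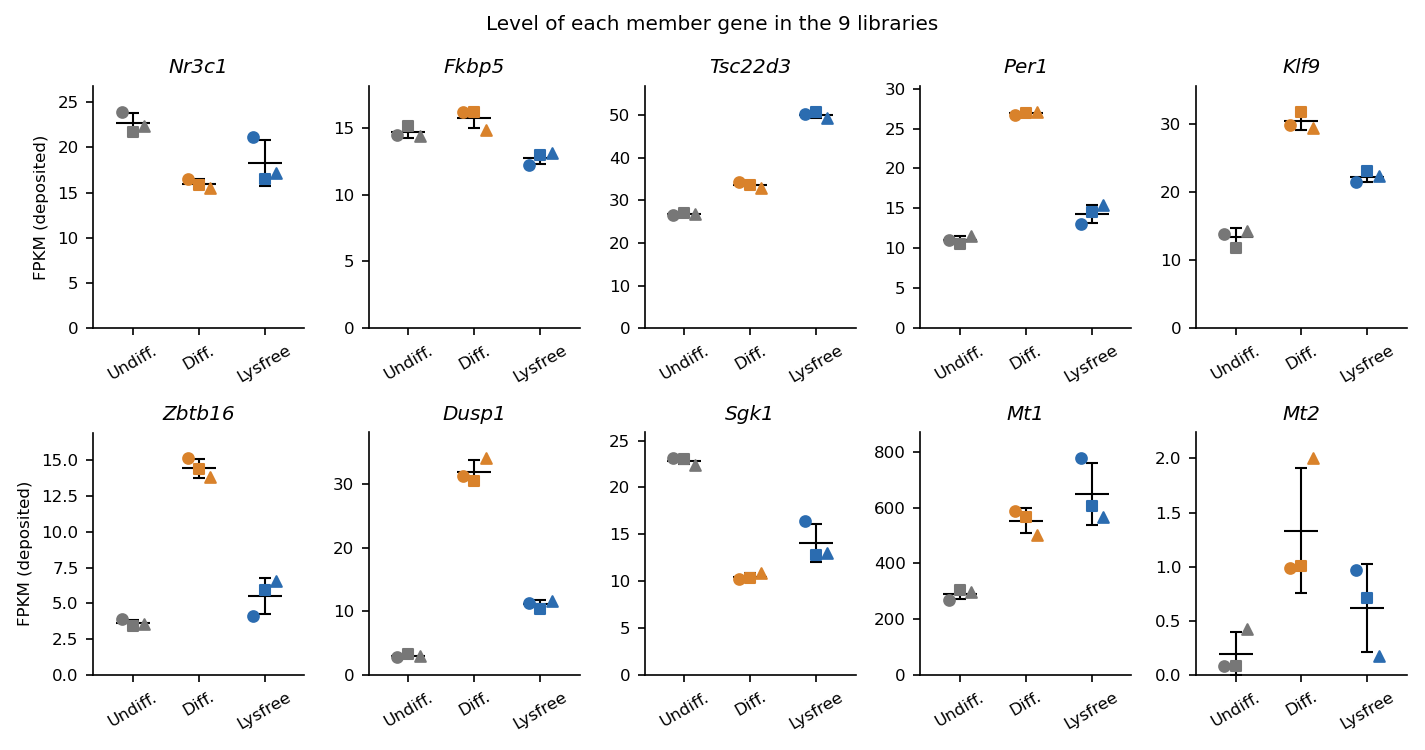
Deposited FPKM (vertical axes, linear, from 0) of the 10 members in each library, with circles, squares and triangles for replicates 1, 2 and 3 and black lines for the mean and SD of the 3 libraries of a group. Dusp1, Per1 and Zbtb16 are highest in Differentiated, Tsc22d3 is highest in Lysfree, Sgk1 is highest in Undifferentiated, and Lysfree 1 lies away from Lysfree 2 and 3 in Nr3c1, Sgk1, Mt1 and Zbtb16.

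The receptor gene itself was lower under the cocktail. Nr3c1 (ENSMUSG00000024431) was at 23.9, 21.7 and 22.3 FPKM in Undifferentiated 1, 2 and 3, at 16.6, 15.8 and 15.5 FPKM in Differentiated and at 21.2, 16.5 and 17.1 FPKM in Lysfree. All Undifferentiated libraries lay above all others, Lysfree 1 lay just below them, and Lysfree 2 lay within the range of Differentiated. The level fell by 0.53 on the log2 scale in Differentiated vs Undifferentiated (SE 0.06, adjusted p = 2.1e-20). Against Undifferentiated the Lysfree log2 change was -0.26 (SE 0.10, adjusted p = 0.046), and without Lysfree 1 it was -0.41 (adjusted p = 5.29e-10). Against Differentiated the Lysfree change was 0.26 (SE 0.10, adjusted p = 0.042), and without Lysfree 1 it was 0.125 (adjusted p = 0.0278). Both of these last calls sat at the threshold: the first was lost without any of Undifferentiated 1, 2 or 3 or Lysfree 2 or 3 (adjusted p 0.0525 to 0.243), and the second without any of the Differentiated libraries (0.0767 to 0.142).

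A pair of members feed back on the receptor or relay its anti-inflammatory action, and they went separate ways. Fkbp5 (ENSMUSG00000024222, chr17:28399094-28517527, minus strand) encodes FKBP51, a co-chaperone that lowers the affinity of the receptor for hormone. It was at 14.5, 15.1 and 14.4 FPKM in Undifferentiated, 16.2, 16.2 and 14.8 FPKM in Differentiated and 12.2, 13.0 and 13.1 FPKM in Lysfree. The Undifferentiated and Differentiated ranges overlapped, and Lysfree lay below both. In Differentiated vs Undifferentiated the log2 change was 0.07 (SE 0.06) and did not pass the test (adjusted p = 0.31), and in Lysfree vs Undifferentiated it was -0.15 (SE 0.10, adjusted p = 0.26). Fkbp5 fell by 0.24 on the log2 scale in Lysfree vs Differentiated (SE 0.09, adjusted p = 0.039), which no longer passed without any of the Differentiated libraries or Lysfree 2 or 3 (adjusted p 0.0534 to 0.177). The Lysfree vs Undifferentiated change passed the test without Lysfree 1 (-0.15, adjusted p = 0.0492).

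Tsc22d3 (ENSMUSG00000031431, chrX:140539528-140600659, minus strand) encodes GILZ, a leucine zipper protein that mediates anti-inflammatory effects of glucocorticoid. It was at 26.6, 27.0 and 26.9 FPKM in Undifferentiated, 34.3, 33.5 and 33.0 FPKM in Differentiated and 50.2, 50.7 and 49.3 FPKM in Lysfree. The 3 groups did not overlap, the spread within each was small, and the lysine-free libraries were the highest. Tsc22d3 rose by 0.30 on the log2 scale in Differentiated vs Undifferentiated (SE 0.06, adjusted p = 6.6e-07), by 0.95 in Lysfree vs Undifferentiated (SE 0.10, adjusted p = 6.7e-10) and by 0.64 in Lysfree vs Differentiated (SE 0.08, adjusted p = 2e-06). Without Lysfree 1 the last value was 0.62. It was the member with the largest rise in Lysfree vs Differentiated, and none of its 3 changes reached 2-fold.

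The transcription regulators Per1, Klf9 and Zbtb16 rose with the cocktail and were lower without lysine than with it. Per1 (ENSMUSG00000020893, chr11:69095217-69109960, plus strand) is a core circadian clock repressor. It was at 11.1, 10.5 and 11.6 FPKM in Undifferentiated, 26.7, 26.9 and 27.1 FPKM in Differentiated and 13.1, 14.5 and 15.4 FPKM in Lysfree, with no overlap between groups. The log2 change was 1.26 in Differentiated vs Undifferentiated (SE 0.06, adjusted p = 1.4e-92) and 0.42 in Lysfree vs Undifferentiated (SE 0.11, adjusted p = 0.0017). The change in Lysfree vs Differentiated was -0.84 (SE 0.09, adjusted p = 1.7e-07), so that the Lysfree level lay nearer to Undifferentiated than to Differentiated. Klf9 (ENSMUSG00000033863, chr19:23141226-23166911, plus strand) encodes a Krüppel-like zinc finger factor. Its levels were 13.9, 11.8 and 14.3 FPKM in Undifferentiated, 29.9, 31.7 and 29.4 FPKM in Differentiated and 21.4, 23.0 and 22.3 FPKM in Lysfree. The groups did not overlap and Lysfree lay midway, with log2 changes of 1.16 (SE 0.07, adjusted p = 4.8e-67), 0.79 (SE 0.11, adjusted p = 4.3e-07) and -0.38 (SE 0.09, adjusted p = 0.002) in the same order of comparisons.

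Zbtb16 (ENSMUSG00000066687, chr9:48654297-48836222, minus strand) encodes PLZF, a zinc finger repressor. It was at 3.87, 3.39 and 3.56 FPKM in Undifferentiated, 15.1, 14.4 and 13.8 FPKM in Differentiated and 4.11, 5.95 and 6.53 FPKM in Lysfree. Differentiated stood well above the others, and Lysfree 1 was the nearest to Undifferentiated. The log2 change was 1.97 in Differentiated vs Undifferentiated (SE 0.08, adjusted p = 2e-138), 0.67 in Lysfree vs Undifferentiated (SE 0.15, adjusted p = 0.0004) and -1.32 in Lysfree vs Differentiated (SE 0.14, adjusted p = 6.3e-08). Without Lysfree 1 the last pair of values was 0.81 and -1.16. The Lysfree vs Undifferentiated change was not called by limma on log2(FPKM + 1) (adjusted p = 0.0677). The adipocyte marker sum moved in the same direction as Per1, Klf9 and Zbtb16 with the cocktail and with the removal of lysine, but in Lysfree it lay below Undifferentiated while these 3 genes lay above, and its part in their changes was not tested.

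**Figure D2:**
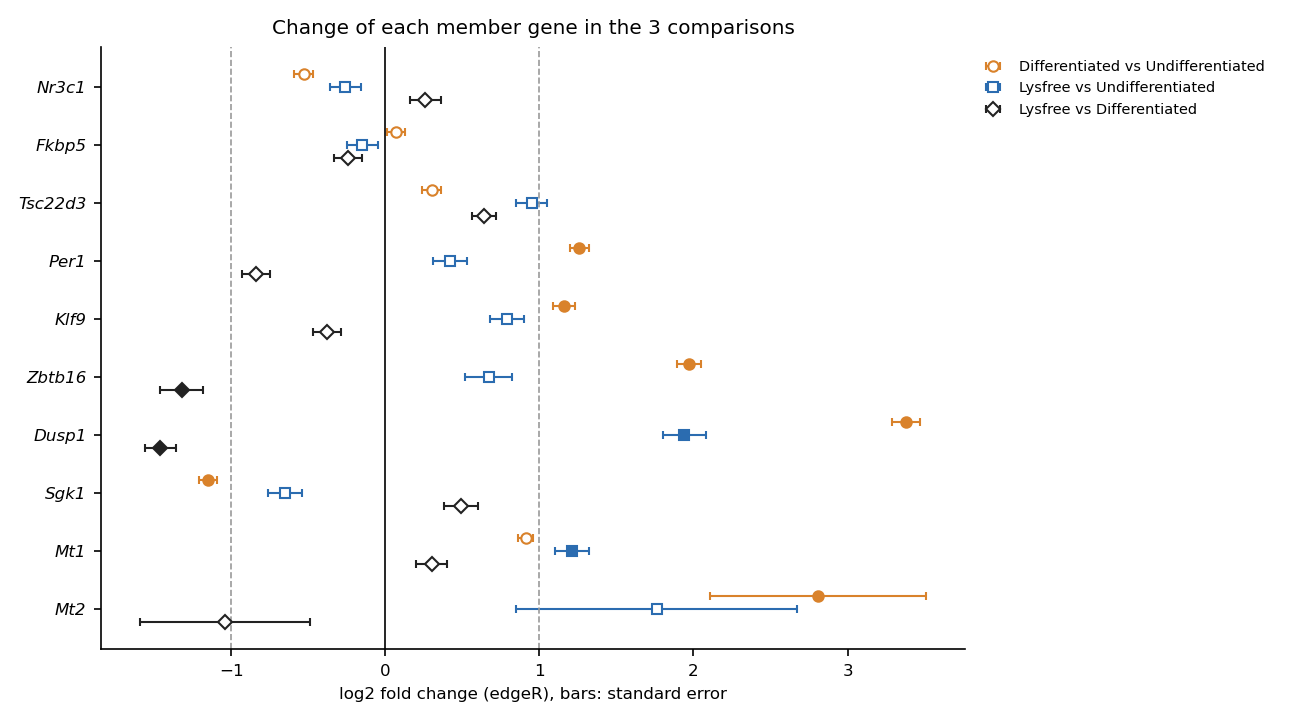
Log2 fold change (horizontal axis) of each member by edgeR, with bars for the standard error, for Differentiated vs Undifferentiated (circles), Lysfree vs Undifferentiated (squares) and Lysfree vs Differentiated (diamonds). Filled symbols are DEGs and dashed lines mark a 2-fold change. Dusp1 lies farthest from 0 (3.38 in Differentiated vs Undifferentiated), Mt2 has the widest bars, and Sgk1 and Nr3c1 lie on the other side of 0 from most members.

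The genes of a pair of signalling enzymes went opposite ways under the cocktail. Dusp1 had the largest rise of the members in Differentiated vs Undifferentiated except without Undifferentiated 3, where the sparsely counted Mt2 had 3.88 and Dusp1 3.40, and Sgk1 had the largest fall. Dusp1 (ENSMUSG00000024190, chr17:26505590-26508519, minus strand) encodes MKP-1, a phosphatase that inactivates MAP kinases. It was at 2.73, 3.25 and 3.01 FPKM in Undifferentiated, 31.2, 30.5 and 34.0 FPKM in Differentiated and 11.3, 10.3 and 11.7 FPKM in Lysfree. The groups were far apart with no overlap. Dusp1 was 10.4-fold higher in Differentiated than in Undifferentiated (log2 change 3.38, SE 0.09, with an adjusted p below the range of the software) and 3.83-fold higher in Lysfree than in Undifferentiated (log2 change 1.94, SE 0.14, adjusted p = 4.5e-13). It was 2.75-fold lower in Lysfree than in Differentiated (log2 change -1.46, SE 0.10, adjusted p = 1.8e-10), and the value without Lysfree 1 was -1.49. Of its exonic bases 11 (0.332%) overlap the gene Ergic1 on the other strand.

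Sgk1 (ENSMUSG00000019970, chr10:21882184-21999903, plus strand) encodes a kinase that regulates ion channels and transporters and is a textbook glucocorticoid-induced gene. It was at 23.1, 23.0 and 22.4 FPKM in Undifferentiated, 10.2, 10.3 and 10.9 FPKM in Differentiated and 16.4, 12.8 and 13.0 FPKM in Lysfree. The groups did not overlap, and the untreated cells were the highest. Its log2 change was -1.15 in Differentiated vs Undifferentiated (SE 0.06, adjusted p = 3.7e-70), -0.65 in Lysfree vs Undifferentiated (SE 0.11, adjusted p = 6e-06) and 0.49 in Lysfree vs Differentiated (SE 0.11, adjusted p = 0.0008). Without Lysfree 1 the last pair of values was -0.80 and 0.35, with both calls kept. Sgk1, with the full glucocorticoid element shown above, had the lowest fold change of the members in Differentiated vs Undifferentiated.

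Metallothioneins are small cysteine-rich proteins that bind zinc and copper. Mt1 (ENSMUSG00000031765, chr8:94179082-94180327, plus strand) was at 267, 303 and 299 FPKM in Undifferentiated, 589.7, 567 and 504 FPKM in Differentiated and 777, 606 and 567 FPKM in Lysfree. Both cocktail groups lay above Undifferentiated and overlapped each other, with Lysfree 1 the highest library. Mt1 rose by 0.91 on the log2 scale in Differentiated vs Undifferentiated (SE 0.05, adjusted p = 1.7e-72) and by 1.21 in Lysfree vs Undifferentiated (SE 0.11, adjusted p = 2.1e-11; 1.04 without Lysfree 1). Its log2 change in Lysfree vs Differentiated was 0.30 (SE 0.10, adjusted p = 0.023), which was 0.13 without Lysfree 1 (adjusted p = 0.000524) and was not called without Differentiated 2 or 3 (adjusted p = 0.0837 and 0.0923) or by DESeq2 (0.101).

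Mt2 (ENSMUSG00000031762, chr8:94172664-94173568, plus strand) was counted at a few reads per library, so its values are uncertain. It had 1, 1 and 4 counts in Undifferentiated, 9, 11 and 19 in Differentiated and 10, 8 and 2 in Lysfree. Of its 588 exonic bases 432 (73.5%) lie in exons of the antisense gene Gm45774, which had 0 to 6 counts, and the strand setting of the counting was not given in the sources used here, so reads of this pair cannot be told apart. No 50-base stretch of Mt1 or Mt2 occurs in the same sense in a transcript of another gene. The fitted log2 change was 2.81 in Differentiated vs Undifferentiated (SE 0.70, adjusted p = 0.00016). It was 3.88 without Undifferentiated 3, and by limma on log2(FPKM + 1) it was 0.95, under 2-fold, so that 4 rather than 5 members were higher DEGs. The ratio of the summed counts, 39 against 6 and scaled by total counts, was 7.35 with an exact 95% interval of 3.09 to 21.2 that covers counting error only. Neither Lysfree vs Undifferentiated (1.76, SE 0.91, adjusted p = 0.14) nor Lysfree vs Differentiated (-1.04, SE 0.55, adjusted p = 0.16) passed the test, and the latter did without Lysfree 1 (-1.51, adjusted p = 0.0267). The Lysfree vs Undifferentiated value ran from 1.28 without Lysfree 1 to 2.85 without Undifferentiated 3 and passed in neither.

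**Figure D3:**
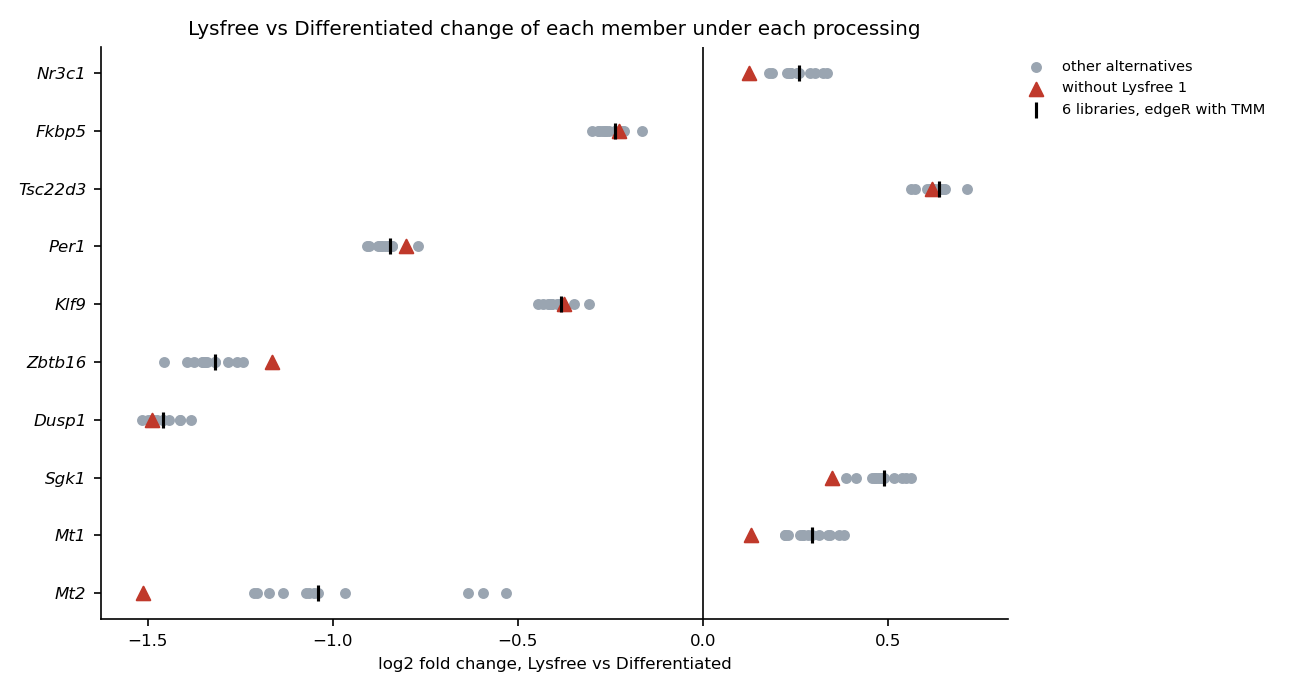
Log2 fold change of each member in Lysfree vs Differentiated (horizontal axis) with all 6 libraries in edgeR (black bars), without Lysfree 1 (red triangles) and under the other alternatives (grey points). No member crosses 0, and Lysfree 1 moves Mt2, Mt1, Zbtb16, Nr3c1 and Sgk1 the most.

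The order of the length-scaled levels of the members changed with the medium. In Undifferentiated, mean FPKM ran from Mt1 (289.7) through Tsc22d3 (26.8), Sgk1 (22.8), Nr3c1 (22.7), Fkbp5 (14.7), Klf9 (13.3), Per1 (11.1) and Zbtb16 (3.61) to Dusp1 (3.00) and Mt2 (0.194), and of the neighbours only Sgk1 and Nr3c1 overlapped. In Differentiated, below Mt1 (554), Tsc22d3 (33.6) and Klf9 (30.3) each overlapped Dusp1 (31.9) between them but not each other. Per1 (26.9) followed. Below it, Nr3c1 (15.9) and Zbtb16 (14.4) each overlapped Fkbp5 (15.7) between them but not each other, and Sgk1 (10.5) came next. In Lysfree, Mt1 (650.3), Tsc22d3 (50.1), Klf9 (22.2) and Nr3c1 (18.3) were distinct, Per1 (14.3), Sgk1 (14.1) and Fkbp5 (12.8) overlapped, and Dusp1 (11.1) and Zbtb16 (5.53) followed. Dusp1 thus moved from the ninth place to the third with lysine and to the eighth without it.

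Genes that prepare or assist the receptor were more often higher than lower under the cocktail. Of 22 chaperones and coregulators, 16 were higher and 4 lower by the adjusted p in Differentiated vs Undifferentiated, beside 23% and 23.2% of all genes. The list held 2 higher and 2 lower DEGs there, shares no larger than the 10.4% and 11.4% of all genes. The median log2 change of the list was 0.43 in that comparison, 0.33 in Lysfree vs Undifferentiated and 0.24 in Lysfree vs Differentiated, and for this and the following lists the medians over all genes were 0.02, -0.02 and -0.06. Hsp90aa1, the inducible Hsp90, rose from 92.1 ± 2.79 to 264 ± 3.17 FPKM (SD, n = 3), and Nrip1, a corepressor of nuclear receptors, rose by 1.84 on the log2 scale, while the coactivator gene Ncoa3 (-1.36) fell. Lysfree vs Undifferentiated had 6 higher DEGs and 0 lower, beside 5.52% and 8.76% of all genes. The rises were led by Hsp90aa1 (1.69), the PPARγ coactivator gene Ppargc1a (1.58) and Ptges3 (1.32), which encodes the Hsp90 co-chaperone p23. In Lysfree vs Differentiated Ncoa3 (1.68) and the co-chaperone gene Ppid (1.09) were higher and Nrip1 (-1.30) was lower, beside 8.14% and 10.5% of all genes.

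Among genes of steroid metabolism, Hsd11b1 and H6pd were lower without lysine than with it. Hsd11b1, the reductase that turns inactive glucocorticoids into active ones, was at 2.13 ± 0.54 FPKM in Undifferentiated, 22.1 ± 0.974 in Differentiated and 2.54 ± 0.166 in Lysfree (SD, n = 3). It rose by 3.32 on the log2 scale with the complete cocktail and was lower by a log2 change of -3.05 in Lysfree vs Differentiated (SE 0.11, adjusted p = 5.1e-15). Its log2 change of 0.29 in Lysfree vs Undifferentiated did not pass the test. H6pd, which supplies NADPH to that reductase, was at 23.8, 24.6 and 8.64 FPKM and fell in Lysfree against both other groups (-1.42 and -1.45). Abcb1b, a P-glycoprotein gene whose product exports steroids among other substrates, fell with lysine (-1.36) and rose without it (2.36 against Undifferentiated, 3.72 against Differentiated). Abcb1a (1.79 and 2.48) and the aldose reductase gene Akr1b3 (1.61 and 1.28) rose in both cocktail groups, and the mineralocorticoid receptor gene Nr3c2 fell in Differentiated (-1.68). In all, 3 of 8 were higher DEGs and 2 lower in Differentiated vs Undifferentiated (10.4% and 11.4% of all genes), 3 and 1 in Lysfree vs Undifferentiated (5.52% and 8.76%), and 1 and 2 in Lysfree vs Differentiated (8.14% and 10.5%), with medians of 0.43, 0.44 and -0.30. By limma on log2(FPKM + 1) the first comparison had 2 DEGs in place of 5.

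A wider list of 34 genes known to be induced by glucocorticoid in various tissues, none of them a member, held 15 higher and 5 lower DEGs in Differentiated vs Undifferentiated, 7 and 4 in Lysfree vs Undifferentiated and 4 and 11 in Lysfree vs Differentiated, with medians of 0.76, 0.15 and -0.72. Beside these counts, 10.4%, 5.52% and 8.14% of all genes were higher DEGs and 11.4%, 8.76% and 10.5% lower in the same order. The largest rises with lysine included genes that are also abundant in fat cells. Acsl1, which activates fatty acids, rose by 5.27 and Glul, glutamine synthetase, by 4.13, and the falls were in Pik3ip1 (-2.87), Fbxo32 (-2.08) and Gadd45b (-1.85). In Lysfree vs Undifferentiated the largest rises were in Lcn2 (3.39), Rgs2 (2.35) and Irs2 (1.38), and the falls in Sult1a1 (-3.85), Pik3ip1 (-2.52) and Lpin1 (-1.76). Sult1a1 had only 4 to 14 counts per library in Lysfree. Against Differentiated, Acsl1 (-5.71), Sult1a1 (-4.94) and Lpin1 (-4.70), a phosphatidate phosphatase of triglyceride synthesis, were lower and Gadd45b (1.91), Cebpd (1.29) and Rgs2 (1.19) were higher. All 8 adipocyte markers were lower DEGs in that last comparison, and their part in these counts was not tested.

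Genes known to be repressed by glucocorticoid, mostly cytokines, proteases and collagens, were more often lower than higher DEGs under the cocktail. Of 23 tested, 12 were lower and 6 higher DEGs in Differentiated vs Undifferentiated, led by the chemokine gene Cxcl5 (-4.59), the gelatinase gene Mmp9 (-3.49) and the adhesion gene Vcam1 (-3.29), with rises in Ptgs2 (2.39), Lif (2.26) and Cxcl10 (2.00). These counts include sparsely counted genes: in the libraries compared, Icam1 and Bglap (lower) and Nos2 (higher) had at most 13, 11 and 7 counts. DESeq2 gave 10 lower and 5 higher, and limma on log2(FPKM + 1) gave 9 and 3. In Lysfree vs Undifferentiated 11 of 22 were lower and 3 higher, with falls in Mmp9 (-6.24), Mmp3 (-4.16) and Cxcl12 (-2.88) and rises in Il6 (4.24), Ptgs2 (2.55) and Ccl7 (1.54). Lysfree vs Differentiated split evenly, with 6 higher, led by Il6 (3.83), Csf1 (3.35) and Cxcl5 (3.12), and 6 lower, among them Mmp9 (-2.75) and Ccl5 (-2.46). Mmp9 had only 3 to 16 counts per library in Lysfree. Il6 had only 10 to 15 in Undifferentiated and 11 to 15 in Differentiated, against 176 to 229 in Lysfree, and Lif had 9 to 14 in Undifferentiated. Cxcl10 had 0 to 7 counts in Lysfree against 102 to 120 in Differentiated, a ratio of 0.0241 (exact 95% interval 0.0103 to 0.0480, counting error only). The medians of the list were -1.79, -1.20 and -0.08. Among all genes 11.4%, 8.76% and 10.5% were lower DEGs and 10.4%, 5.52% and 8.14% higher in the same order. The fibroblast markers, 2 of which are collagens of this list, fell with the cocktail as given above.

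**Figure D4:**
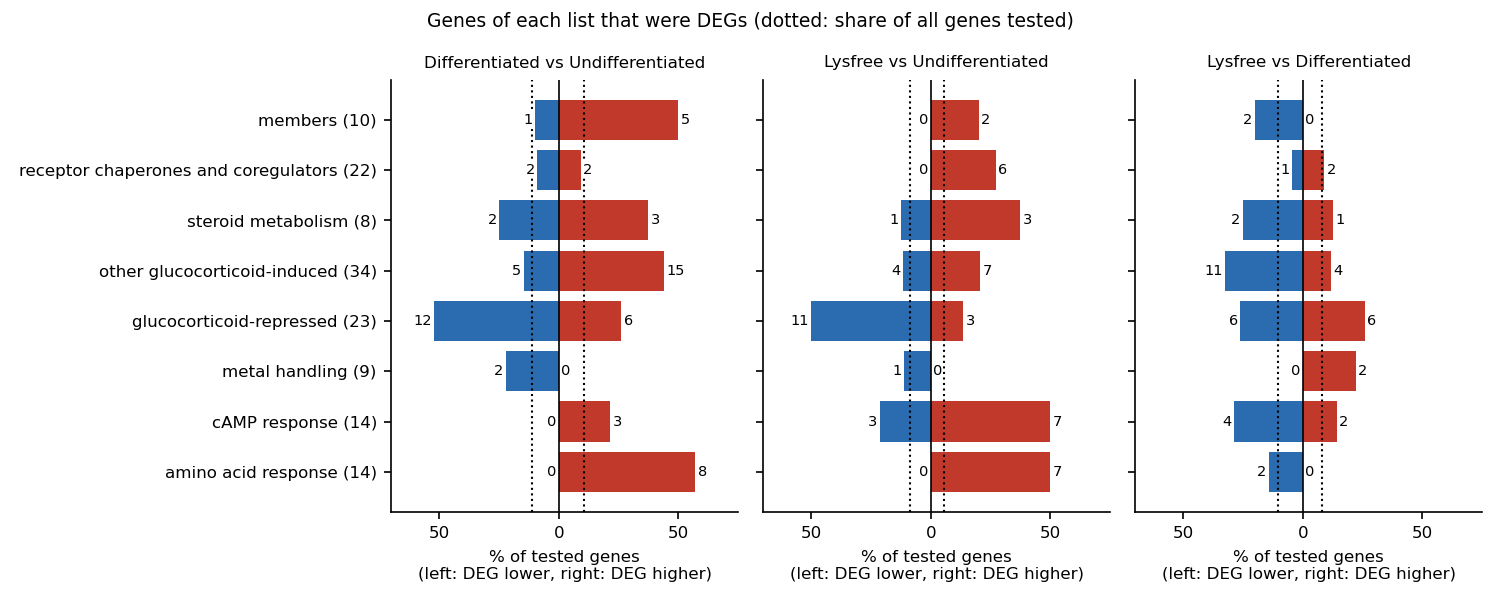
Share of the tested genes of each list that were DEGs (horizontal axis, percent; left lower, right higher; numbers beside bars count genes and numbers in brackets give the genes tested, 22 in place of 23 for the repressed list in Lysfree vs Undifferentiated). Dotted lines mark the share of all genes tested. The members have 5 higher DEGs with lysine and 2 without, and the wider induced list has 15 higher DEGs in Differentiated vs Undifferentiated and 11 lower in Lysfree vs Differentiated.

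The cocktail holds IBMX, which blocks the breakdown of cAMP, and lysine is an amino acid. Lists of cAMP response and amino acid response genes are therefore given beside the members. Neither cAMP nor amino acid sensing was measured in these data. Of 14 cAMP response genes, 3 were higher DEGs in Differentiated vs Undifferentiated, Atf3 (4.71), Pde3b (2.48) and Fos (2.17), and the count was 5 without Differentiated 3. Lysfree vs Undifferentiated had 7 higher, led by Atf3 (5.06), Nr4a1 (1.59) and Pde4d (1.38), and 3 lower, Fosb (-2.53), Egr1 (-2.17) and Fos (-1.65). Lysfree vs Differentiated had 2 higher, among them Pde4b (1.35), and 4 lower, led by Fos (-3.83), Egr1 (-2.40) and Fosb (-1.90). By the adjusted p alone the last comparison had 8 of the 14 higher and 4 lower, beside 19.7% and 18.8% of all genes. The median log2 change was 0.52, 0.99 and 0.40 in the 3 comparisons. Higher DEGs made up 10.4%, 5.52% and 8.14% of all genes and lower DEGs 11.4%, 8.76% and 10.5% in the same order.

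Of 14 amino acid response genes, 8 were higher DEGs in Differentiated vs Undifferentiated, led by the hormone gene Fgf21 (4.30), the cystine transporter gene Slc7a11 (2.94) and Cth (2.55) of cysteine synthesis, and 7 in Lysfree vs Undifferentiated, led by Cth (2.37), Chac1 (2.18) and Slc7a11 (2.18). In Lysfree vs Differentiated 0 were higher DEGs and 2 lower, Fgf21 (-2.73) and Nupr1 (-1.07), and 1 without Lysfree 1. By the adjusted p alone 4 of the 14 were higher and 5 lower there, beside 19.7% and 18.8% of all genes. The medians of this list were 1.18, 1.07 and -0.02. Of 9 metal handling genes tested beside Mt1 and Mt2, 5 were higher and 3 lower by the adjusted p in Differentiated vs Undifferentiated and 7 and 1 in Lysfree vs Undifferentiated, with 0 higher DEGs in either. The lower DEGs were 2 in the first, the iron exporter gene Slc40a1 (-3.21) and the ferritin light chain gene Ftl1 (-1.44), and 1 in the second, Slc40a1 (-2.50). Ftl1 (1.75) and the ferritin heavy chain gene Fth1 (1.01) were higher in Lysfree vs Differentiated. The count of these was 1 in 8 of 14 alternatives, among them DESeq2 and leaving out Differentiated 2, Lysfree 2 or Lysfree 3. The medians of the metal list were 0.24, 0.56 and 0.58. For both lists, the DEGs among all genes were 10.4%, 5.52% and 8.14% higher and 11.4%, 8.76% and 10.5% lower in the same order. By the adjusted p alone 23% of all genes were higher and 23.2% lower in Differentiated vs Undifferentiated. In Lysfree vs Undifferentiated 18% were higher and 17.1% lower.

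For 4 of the members, the genes most like them across the 9 libraries were sought by Pearson r of log2(FPKM + 1) among 7603 genes with a mean of at least 5 FPKM. The points share the 3 groups, so a high r mainly states the same order of group means. Nr3c1 was closest to Sppl2a (r = 0.986), Vps41 (0.981) and Gpc4 (0.979), Fkbp5 to ENSMUSG00000079557 (0.990), Camta2 (0.985) and Tsnax (0.976), and Klf9 to Rrp1b (0.993), Ak4 (0.992) and Clcn6 (0.992). Tsc22d3 was closest to Akirin2 (0.996), Thumpd1 (0.996) and Tars (0.995), the threonyl-tRNA synthetase gene, which was at 47.3 ± 0.877 FPKM in Undifferentiated, 68.0 ± 0.709 in Differentiated and 112 ± 2.61 in Lysfree (SD, n = 3).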

How the data were processed

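Per the labels and the submitters' processing notes, reads were mapped to mm10 with HISAT2 2.0.5 and counted with featureCounts 1.5.0-p3, and the strand setting and annotation release were not given in the sources used here. The authors deposited raw counts per gene and FPKM for 54532 genes. The deposited FPKM equalled count over length and total times a constant per library of 0.932 to 1.04, so FPKM differs slightly between groups by scaling alone, and tests used counts. Every gene counted at least once among the 6 libraries compared was tested with edgeR 4.0.16 (TMM, glmQLFit, glmQLFTest, Benjamini-Hochberg over all genes) in R 4.3.3. The fits were tested on simulated data. A DEG passed at an adjusted p under 0.05 with a log2 fold change of 1 or more in either direction. The SE is the log2 fold change over the square root of F. Alternatives were DESeq2 1.42.0, RLE size factors, library totals, filterByExpr, all 9 libraries in a single fit, a replicate block, limma 3.58.1 on log2(FPKM + 1) and log2(FPKM + 0.1), no fold threshold, and leaving out each library. Coordinates are those of the files, and 7 of the 10 members had the same start and end in GENCODE vM21. The members and gene lists were chosen with earlier results of these data known. Named list genes are, per list and comparison, up to 3 largest rises and 3 largest falls among DEGs with at least 1 CPM and no overlap between groups, and a few genes that this rule would name are not reported here. Ddit3 was left out because 2 identifiers share the symbol. List counts under the alternatives were chosen after seeing the data.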

Additional observations from a re-analysis of the deposited data

Results flagged for a closer look

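The response to the cocktail differed with and without lysine for 2 members by the test of the difference itself, Lysfree vs Differentiated in edgeR, with a change of over 2-fold. Beside these, 18.7% of all 24130 genes were DEGs in either direction there and 10.5% were lower, so the count of members is near the share of all genes. For Dusp1 the log2 change was -1.46, lower in 3 of 3 Lysfree libraries than in every Differentiated library. For Zbtb16 it was -1.32, again lower in 3 of 3. Of all genes, 25.3% lay lower without overlap in this comparison. Groups of 3 libraries are too small for a check of single outlying values.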

How the results depend on the processing

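No value of a member changed sign under any alternative run. Of 418 values of single members, 380 kept their side of the threshold, 33 lost the call and 5 gained it. The losses were in Nr3c1 and Zbtb16 (Lysfree vs Undifferentiated) and Nr3c1, Fkbp5 and Mt1 (Lysfree vs Differentiated), and the gains in Fkbp5 (Lysfree vs Undifferentiated) and Mt2 (Lysfree vs Differentiated). Limma lost Zbtb16 in Lysfree vs Undifferentiated (adjusted p = 0.0677 and 0.0549 with pseudocounts of 1 and 0.1), and DESeq2 lost Nr3c1 in Lysfree vs Undifferentiated (0.0604) and in Lysfree vs Differentiated (0.108). The cause was not tested.

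The number of DEGs among all genes was 5329 in Differentiated vs Undifferentiated, 3426 in Lysfree vs Undifferentiated and 4507 in Lysfree vs Differentiated, and values below keep this order. With limma on log2(FPKM + 1) it was 2726, 1474 and 2198, where the pseudocount shrinks the fold changes of low genes. With no fold threshold it was 11260, 8428 and 9280, and the members called rose from 2 to 8 in Lysfree vs Undifferentiated and from 2 to 9 in Lysfree vs Differentiated. Leaving out a library gave 5037 to 5161, 3093 to 3448 and 4120 to 4485 DEGs. Library totals alone moved the median log2 change of genes from 1 CPM in Lysfree vs Differentiated from 0.044 to 0.119, and Fkbp5 was then not called there (adjusted p = 0.17). Among the gene lists, limma on log2(FPKM + 1) gave 4 DEGs in place of 10 (Lysfree vs Undifferentiated) and 2 in place of 6 (Lysfree vs Differentiated) for the cAMP response and 2 in place of 5 for steroid metabolism (Differentiated vs Undifferentiated), and metal handling had 2 in place of 1 without Lysfree 3 (Lysfree vs Undifferentiated).

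The groups share replicate numbers. Deviations of same-numbered libraries from their group means had r from -0.0849 to 0.116 over 9 pairs, and those of unlike number -0.157 to 0.106. Whether same-numbered libraries shared a culture or batch cannot be told from these values, and the labels do not say. With the replicate block the DEGs numbered 4837, 3179 and 4173 and the members called stayed at 6, 2 and 2, while Nr3c1 and Fkbp5 in Lysfree vs Differentiated passed the threshold no more (adjusted p = 0.0607 and 0.0782). Not every library correlated best with its own number. Mt2 had 1 to 4 counts per library in Undifferentiated, 9 to 19 in Differentiated and 2 to 10 in Lysfree. Whether depth or the overlap with Gm45774 keeps these counts low was not tested.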
